A study of Mus musculus with 4 samples.

Results

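The genes described here are 50 genes of mitosis and chromosome segregation, chosen by symbol from a list that names the mitotic kinases and cyclins, the spindle checkpoint, the kinetochore, the chromosomal passenger complex, spindle kinesins, condensin, the cytokinesis machinery and the anaphase machinery. All 50 were among the 16360 genes of the count table, and all 50 passed the filter on low counts that left 13575 genes for testing. They were measured by poly(A) RNA-seq in recruited alveolar macrophages, cells that arise from blood monocytes and settle in the airspaces of an injured lung. The mice were males of 8 to 10 weeks, of a strain given as CD57/Bl6. All had been given bleomycin, a DNA-damaging drug that injures lung tissue and serves as a model of fibrosis, as an intratracheal dose of 100 µl at 1 U/ml. At 7 days the cells were taken by flow sorting on high CD64, low SigF and high CD11b. The 2 libraries RM1 and RM2 came from mice homozygous for the R213G variant of EC-SOD, an antioxidant enzyme outside cells that Sod3 encodes, and the 2 libraries WTM1 and WTM2 came from wild-type (WT) mice. No untreated mice were among these samples, and whether the libraries came from different mice is not stated in the labels. P-values therefore reflect the spread between these libraries only, which may be technical.

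As background, a dividing cell condenses its chromosomes, attaches each to both spindle poles through its kinetochores, separates the sister chromatids once a checkpoint is satisfied, and then cleaves in the middle. Most of these transcripts are made late in the cell cycle and are low in resting cells, so in a mixed population they are read as a measure of how many cells are cycling. Monocytes mostly stop dividing when they leave the bone marrow, while tissue macrophages can divide locally after injury. In bulk RNA, fewer dividing cells and less mitotic RNA per dividing cell cannot be told apart.

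Total counts were 33488569 to 35176210 per library. RM1 stood apart from the other libraries, with 13584 genes detected against 14598 to 15194, and with the non-coding transcript Gm42418 at 1689 CPM against 513 to 702 CPM. Of the genes of the sort gate, Fcgr1 (CD64) was at 243 to 261 CPM and Itgam (CD11b) at 721 to 886 CPM. The summed level of 7 macrophage genes (those 2 with Adgre1, Cd68, Csf1r, Mertk and Lyz2) was 24056 to 30813 CPM. Most of that sum was Lyz2, at 19065 to 25101 CPM. CPM stands for counts per 1e6, taken over the filtered genes with scaling by the trimmed mean of M values (TMM). The 50 genes had from 99 to 14305 counts per library, so counting error was small for most of them.

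Many promoters of these genes share sequence elements, and 4 are shown as examples, which do not span the range found. Many mitotic genes are known to be held down in resting cells and raised late in the cycle through a short element called the CHR, often with CCAAT boxes nearby, and E2F elements are better known from genes of S phase. RefSeq start sites (GRCm38.p6) matched 42 of the 50 genes, with 44 promoters, each of 250 bases before the start and 50 bases after it. No promoter was matched for Ccna2, Spc24, Aurkb, Incenp, Tpx2, Smc4, Kif20a and Foxm1. The 3 promoters with all 3 kinds of element and the highest mean CPM come first, and Cenpe, which has the highest mean CPM among the promoters with no CHR, comes last. The 250 bases before the start are printed 5′ to 3′ on the strand of the gene, and capitals mark the CHR (TTTGAA or TTCGAA), the CCAAT box (CCAAT) and E2F (TTCCCGC, the variant TTGGCGC, the variant TTGCCGC or the variant TTCGCGC), each searched on both strands, so that a reverse CCAAT box reads ATTGG.
Mki67, chr7:135716380-135716629, minus strand: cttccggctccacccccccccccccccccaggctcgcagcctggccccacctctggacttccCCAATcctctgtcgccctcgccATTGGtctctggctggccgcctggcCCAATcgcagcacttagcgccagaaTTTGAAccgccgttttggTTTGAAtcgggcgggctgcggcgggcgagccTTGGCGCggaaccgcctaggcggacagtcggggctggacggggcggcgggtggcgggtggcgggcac
Ncapd2, chr6:125191587-125191836, minus strand: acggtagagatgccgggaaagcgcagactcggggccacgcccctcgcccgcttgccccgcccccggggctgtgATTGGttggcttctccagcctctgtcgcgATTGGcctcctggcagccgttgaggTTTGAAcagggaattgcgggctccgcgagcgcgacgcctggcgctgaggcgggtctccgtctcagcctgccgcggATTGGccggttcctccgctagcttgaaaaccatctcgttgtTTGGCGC
Cdk1, chr10:69352913-69353162, minus strand: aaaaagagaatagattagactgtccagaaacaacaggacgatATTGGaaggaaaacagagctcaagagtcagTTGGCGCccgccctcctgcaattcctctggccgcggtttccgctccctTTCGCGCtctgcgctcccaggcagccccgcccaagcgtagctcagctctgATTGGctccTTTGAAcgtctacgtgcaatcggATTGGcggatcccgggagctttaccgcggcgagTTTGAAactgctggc
Cenpe, chr3:135212313-135212562, plus strand: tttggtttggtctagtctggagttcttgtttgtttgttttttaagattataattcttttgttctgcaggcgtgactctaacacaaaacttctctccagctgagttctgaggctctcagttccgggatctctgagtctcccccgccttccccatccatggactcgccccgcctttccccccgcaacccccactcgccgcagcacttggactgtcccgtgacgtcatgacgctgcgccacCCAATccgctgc

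In these promoters the first base of each match is counted from the start site, with -1 the base before it. The Mki67 promoter held CHR letters at -116 and -98, with CCAAT boxes at -188, -166 and -141 and E2F letters at -67. The Cdk1 promoter held CHR letters at -71 and -15, CCAAT boxes at -208, -80 and -48 and E2F letters at -178 and -130. The Ncapd2 promoter held 1 CHR match at -123, CCAAT boxes at -177, -148 and -48 and E2F letters at -7, and the Cenpe promoter held a single CCAAT box at -12. Over all members, a CHR was found in 34 of 44 promoters (77.3%), against 19.2% of the 32851 promoters of the same length in the table and 14.2% of the promoters of tested genes. CCAAT boxes were found in 32 of 44 (72.7%, against 37.4% of all promoters), both elements in 29 of 44 (65.9%, against 7.52%) and E2F letters in 11 of 44 (25.0%, against 9.57%). Among promoters of tested genes the shares were 37.7% for the CCAAT box and 16.3% for E2F, so the E2F share stood nearer to that background. The position of the CHR matters for these shares: within the 250 bases before the start alone, 18 of 44 held one (40.9%, against 17.1%). Ect2 and Prc1 have 2 overlapping promoters each among the 44. The promoters of Nusap1, Birc5, Mad2l1, Nuf2 and Pttg1 held none of these elements, while that of Top2a held 4 CHR and 6 CCAAT matches. A match of these letters is a description of the sequence, and binding was not measured.

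The first question was whether the mitosis genes differed between R213G and WT macrophages. None passed: by edgeR's quasi-likelihood test, adjusted by Benjamini-Hochberg, 0 of 50 had an adjusted p under 0.05, and 0% of all 13575 genes did. Unadjusted, 0 of 50 had a p under 0.05, against 2.22% of all genes. DESeq2 called 0 of 50, and 0 of 50 had an unadjusted p under 0.05 in it. The log2 fold changes, R213G minus WT, were positive for 43 of 50, against 49.1% of all tested genes, with a median of 0.16 against -0.01 for all tested genes. The direction rested on single libraries: 11 of 50 were positive without WTM1 (median -0.15), 19 of 50 without RM2 (median -0.06), 48 of 50 without RM1 (median 0.40) and 48 of 50 without WTM2 (median 0.72). The 2 R213G libraries both lay above the 2 WT libraries for 4 of 50 genes (Cdk1, Ndc80, Kif4 and Ect2), against 13.7% of all tested genes, and both below for 0 of 50, against 15.2%. With 2 libraries a genotype, the smallest two-sided p of an exact permutation is 0.333, so single genes were not tested that way.

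**Figure D1:**
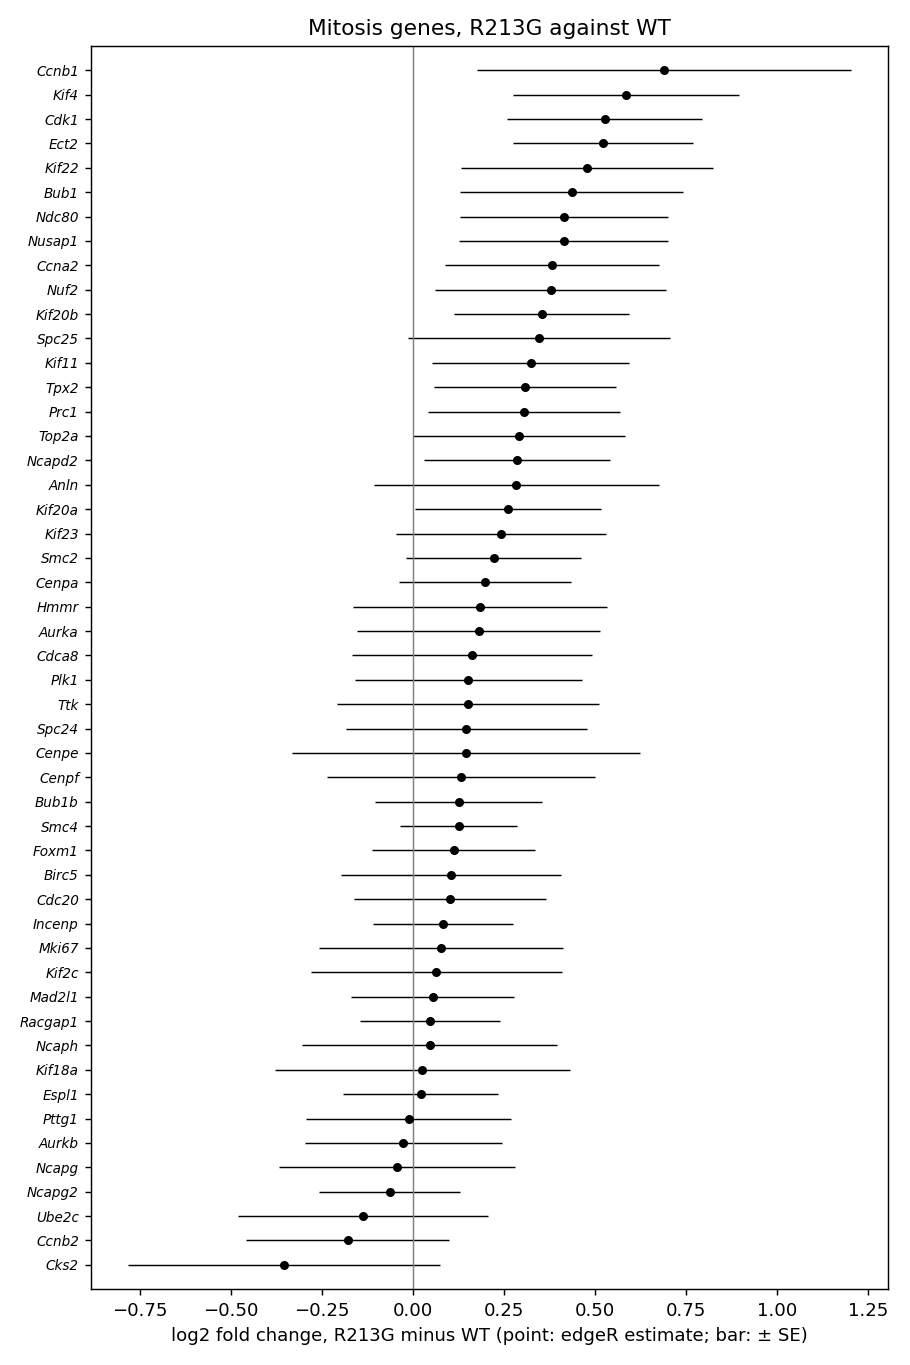
Log2 fold change of each mitosis gene, R213G minus WT, from the edgeR fit, sorted by size, with bars of 1 SE. Positive values mean higher in R213G; 43 of 50 points lie to the right of 0, and no gene passed the test.

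The gaps between libraries of 1 genotype exceeded the difference between the genotype means, though a mean of 2 libraries varies less than 1 library. The mean log2 CPM of the 50 genes was 5.14 in RM1 and 5.56 in RM2, and 4.70 in WTM1 and 5.52 in WTM2. WTM2 therefore stood 0.82 above WTM1 and RM2 stood 0.43 above RM1, while the mean of the R213G libraries exceeded the mean of the WT libraries by 0.24. Between single libraries, the median log2 difference of the genes was 0.85 for WTM2 minus WTM1 and 0.39 for RM2 minus RM1. Across genotypes it was 0.90 for RM2 minus WTM1, 0.39 for RM1 minus WTM1, 0.06 for RM2 minus WTM2 and -0.38 for RM1 minus WTM2. The genes took 0.178% of all counts in WTM1, 0.240% in RM1, 0.315% in WTM2 and 0.321% in RM2, so the order ran from WTM1 through RM1 to a pair of libraries, 1 of each genotype, that lay close together. WTM1 was the lowest of the 4 libraries for 43 of 50 genes, against 24.4% of all tested genes. RM1 was the lowest for 5 (Ccnb2, Cenpf, Kif18a, Smc2 and Ncapg2), against 36.5%, RM2 for Cks2, against 20.1%, and WTM2 for Pttg1, against 19%. The highest library was RM2 for 25 genes and WTM2 for 21, against 22.4% and 21.6% of all tested genes.

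Gene by gene, 41 of 50 were at least 1.5-fold higher in WTM2 than in WTM1, against 13.1% of all tested genes, and 0 were at least 1.5-fold lower, against 10.9%. Between the R213G libraries, 17 of 50 were at least 1.5-fold higher in RM2 than in RM1, against 17.7% of all tested genes, and 0 were at least 1.5-fold lower, against 13.3%. The median of the per-gene differences in log2 CPM corresponded to a 1.80-fold step in the WT pair and a 1.31-fold step in the R213G pair. Replicate 2 lay above replicate 1 in both genotypes for 43 of 50 genes, against 24.3% of all tested genes. Across genotypes, the 2 higher libraries differed little: RM2 against WTM2 gave a median of 1.04-fold, with 0 of 50 genes at least 1.5-fold higher (9.09% of all tested genes) and 1, Cks2, at least 1.5-fold lower (10.1%). The 2 lower libraries differed more: RM1 against WTM1 gave a median of 1.31-fold, with 17 of 50 at least 1.5-fold higher, against 13.4%. At a 2-fold threshold, 14 of 50 were higher in WTM2 than in WTM1 (7.69% of all tested genes) and 2 of 50 in RM2 than in RM1 (11.6%). Across genotypes at 2-fold, 19 of 50 were higher in RM2 than in WTM1 (7.22%), 5 in RM1 than in WTM1 (7.48%), 0 in RM2 than in WTM2 (5.05%) and 0 in RM1 than in WTM2 (7.22%). Each of these ratios sets 1 library against 1, so they describe the libraries and carry no test.

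**Figure D2:**
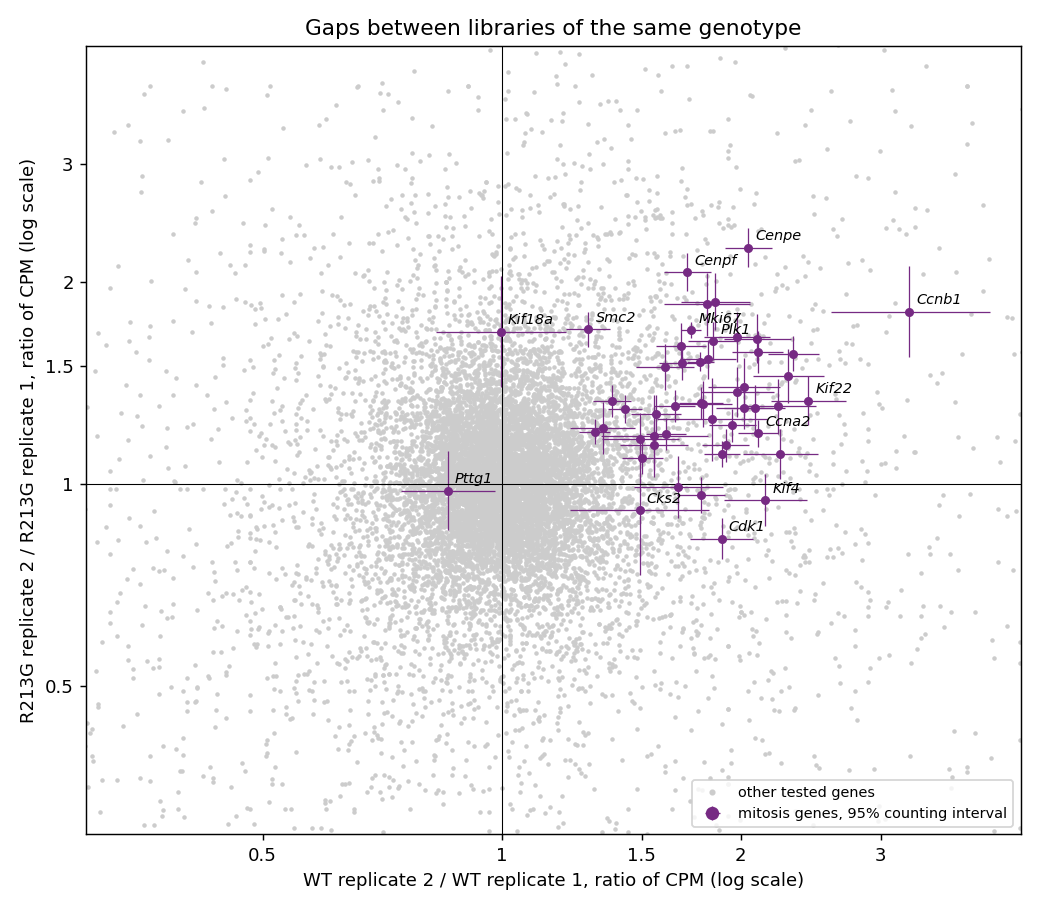
Ratio of CPM of replicate 2 to replicate 1 for each gene, WT libraries on the horizontal axis and R213G libraries on the vertical axis, both on log scales. Purple points are the 50 mitosis genes with 95% counting intervals and grey points are other tested genes; genes outside the axes or with 0 counts in a library are not drawn. The mitosis genes lie to the right of 1 except for Pttg1 and Kif18a, and spread from 0.829 (Cdk1) to 2.25 (Cenpe) on the vertical axis.

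Mki67 (chromosome 7, 135689784 to 135716361, minus strand, GRCm38) encodes a coat of mitotic chromosomes that is the usual marker of proliferating cells, and was at 243 CPM in RM1, 411 in RM2, 227 in WTM1 and 393 in WTM2. Within each genotype replicate 2 was the higher, by 1.69-fold in R213G and 1.73-fold in WT, and the genotypes overlapped (log2 fold change 0.08 ± 0.33 SE, edgeR unadjusted p = 0.826). Foxm1, the transcription factor that switches on many of the genes described here, was at 46.3 and 58.8 CPM in RM1 and RM2 and at 37.9 and 59.2 CPM in WTM1 and WTM2, with the same order within genotypes and smaller steps. Levels can be set side by side between genes only per length. Per kilobase of annotated exon, Mki67 had 31.6 CPM, Ccnb2 29.0, Plk1 23.7, Ccna2 22.7, Incenp 22.6 and Smc4 22.3, and the lowest were Ttk at 2.24, Ccnb1 at 1.98 and the kinesin Kif18a at 0.691. The exon length is the union over all annotated transcripts, which understates genes with many isoforms.

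**Figure D3:**
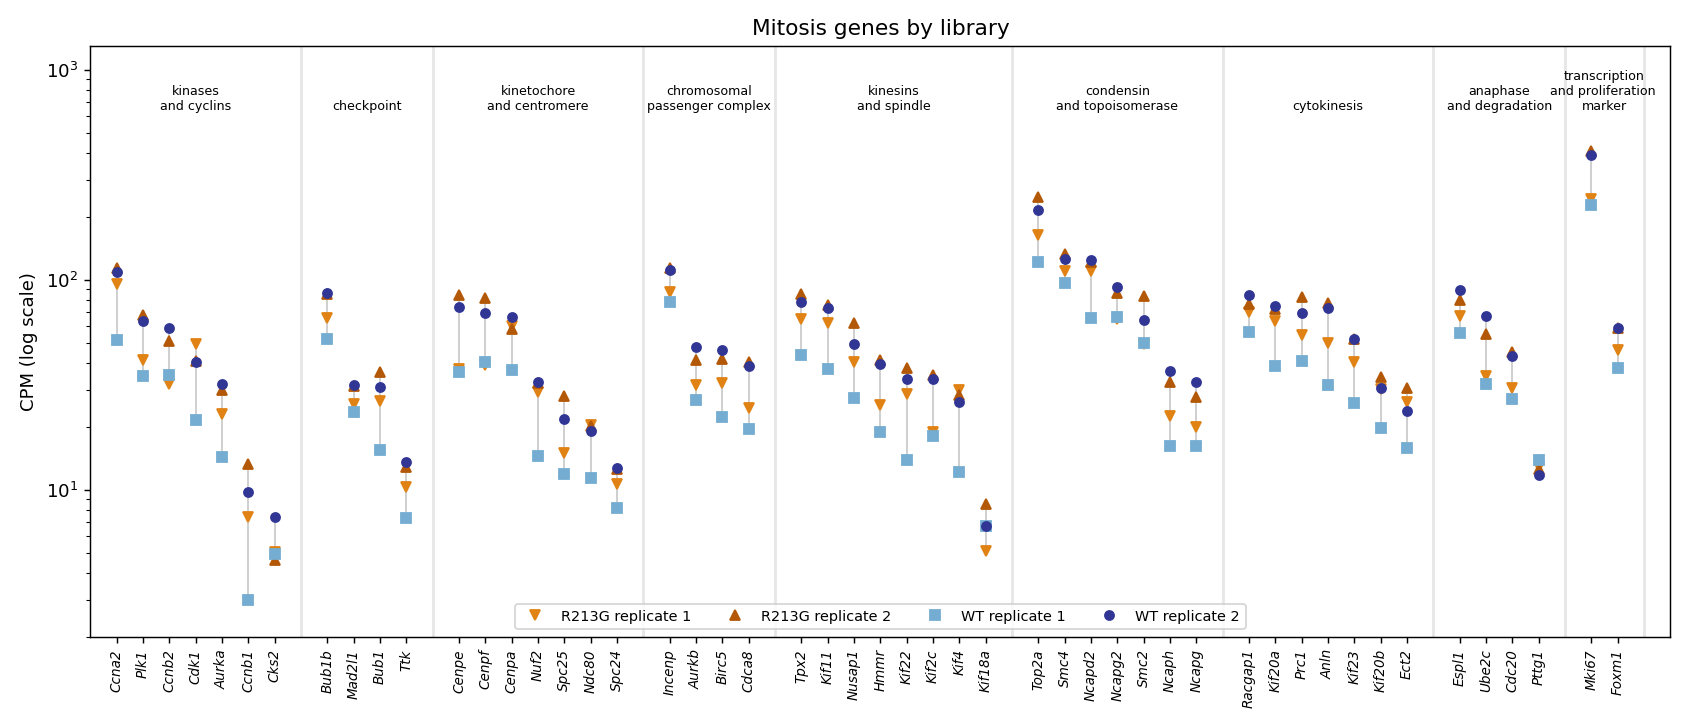
CPM of each mitosis gene in each of the 4 libraries, on a log scale, grouped by role and sorted by mean CPM within a role. In most columns the light blue square (WTM1) is the lowest point, the orange downward triangle (RM1) the next, and the dark symbols (RM2 and WTM2) lie together at the top.

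Among the kinases and cyclins, Cdk1 departed from the common order. Cdk1 (chromosome 10, 69335146 to 69352938, minus strand) encodes the kinase that drives entry into mitosis, and it was at 49.3 and 40.9 CPM in RM1 and RM2 and at 21.6 and 40.8 CPM in WTM1 and WTM2. It was highest in RM1, and the R213G libraries lay above both WT libraries, though RM2 and WTM2 were nearly equal (log2 fold change 0.53 ± 0.27, edgeR unadjusted p = 0.0788). Ccna2, the cyclin A of S and G2 phase, was at 95.8, 114, 51.8 and 109 CPM in RM1, RM2, WTM1 and WTM2, so that only WTM1 was low. Ccnb1 encodes the main cyclin partner of Cdk1 and had the largest fold change of the 50, 0.69 ± 0.51, with 7.38 and 13.3 CPM in R213G and 2.996 and 9.76 CPM in WT. Its counts were 252, 464, 99 and 335, the ratio of WTM2 to WTM1 was 3.26 (95% counting interval 2.60 to 4.12), and the genotypes overlapped. The related cyclin Ccnb2 went with replicate number instead of genotype, at 31.9 and 51.3 CPM in R213G and 35.1 and 59.1 CPM in WT. Plk1, a kinase of centrosome maturation and mitotic exit, was at 41.6 and 68.0 CPM in R213G and at 34.7 and 63.9 CPM in WT, and Aurka, the kinase of the spindle poles, at 22.9 and 29.9 and at 14.4 and 32.0 CPM. Cks2, a small subunit that binds Cdk1, had the most negative fold change, -0.36 ± 0.43. It had 173, 161, 164 and 254 counts in RM1, RM2, WTM1 and WTM2, so its value came from WTM2 alone.

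The 4 spindle checkpoint genes, whose products hold the cell in metaphase until every kinetochore is attached, all had positive fold changes and were all lowest in WTM1. Bub1b, which encodes the BubR1 component of the inhibitory complex, was at 65.6 and 85.7 CPM in RM1 and RM2 and at 52.3 and 86.3 CPM in WTM1 and WTM2. Its R213G and WT libraries interleaved (0.12 ± 0.23). The checkpoint kinase Bub1 had the smallest p of this group (0.44 ± 0.31, edgeR unadjusted p = 0.187), at 26.5, 36.3, 15.5 and 30.7 CPM. Mad2l1, the protein that binds and blocks Cdc20, varied least, at 25.7 and 31.2 CPM in R213G and 23.4 and 31.4 CPM in WT, and the kinase Ttk was at 10.3 and 12.9 and at 7.35 and 13.5 CPM. The ratio of RM2 to RM1 stayed between 1.21 and 1.37 for all 4 genes, while that of WTM2 to WTM1 ran from 1.34 to 1.98.

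Among kinetochore and centromere genes, the ratio of RM2 to RM1 ran from 0.963 to 2.25, while all 7 were at least 1.5-fold higher in WTM2 than in WTM1. Cenpe, the kinetochore motor that carries chromosomes to the metaphase plate, was at 37.6 CPM in RM1 and 84.7 CPM in RM2, and at 36.3 and 74.1 CPM in WTM1 and WTM2. Cenpf, a large protein of the outer kinetochore, was at 39.5 and 81.6 CPM in R213G and 40.7 and 69.7 CPM in WT. Both genes were about equal in the 2 replicate 1 libraries and more than 2-fold higher in RM2 than in RM1 (2.25-fold, interval 2.11 to 2.41, and 2.07-fold, interval 1.94 to 2.21), as no other member was. The Ndc80 complex, which binds microtubules, did not follow them as a unit. Ndc80 itself was level in R213G at 20.4 and 20.2 CPM and lower in WT at 11.4 and 19.0 CPM (log2 fold change 0.42 ± 0.29, edgeR unadjusted p = 0.178). Its partner Nuf2 was at 29.1, 32.3, 14.5 and 32.6 CPM in RM1, RM2, WTM1 and WTM2, and Spc24 at 10.6, 12.5, 8.17 and 12.7 CPM. Spc25 instead stepped up in both genotypes, from 15.0 to 27.8 CPM in R213G and from 12.0 to 21.7 CPM in WT. Cenpa, the histone H3 variant that marks centromeres, was level between RM1 and RM2, at 60.5 and 58.3 CPM, and at 37.2 and 66.2 CPM in WT.

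The chromosomal passenger complex, which corrects wrong attachments and later directs cleavage, had a median ratio of 1.89 between the WT libraries and 1.31 between the R213G libraries. Incenp, its scaffold, was at 87.8 and 113 CPM in RM1 and RM2 and at 78.2 and 112 CPM in WTM1 and WTM2. Aurkb, its kinase, was at 31.7 and 41.6 CPM in R213G and at 26.7 and 47.9 CPM in WT, a fold change of -0.03 ± 0.27. The targeting subunits Birc5 (survivin) and Cdca8 (borealin) were at 32.2, 41.8, 22.3 and 46.4 CPM and at 24.6, 40.7, 19.6 and 38.7 CPM. All 4 subunits were lowest in WTM1 and next lowest in RM1, and in each the genotypes overlapped. Cdca8 had the smallest p of the 4 (edgeR unadjusted p = 0.636).

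Spindle kinesins and their partners had positive fold changes for 8 of 8 genes, with a median of 0.31, and 7 of 8 were lowest in WTM1. Over the whole list each of these held for 43 of 50, against 49.1% and 24.4% of all tested genes. Kif4, a chromosome-bound kinesin needed for condensation and for the midzone, had 1015, 979, 403 and 899 counts in RM1, RM2, WTM1 and WTM2. At 29.7 and 28.1 CPM against 12.2 and 26.2 CPM it was one of the 4 genes without overlap between genotypes (0.59 ± 0.31, edgeR unadjusted p = 0.0897). Kif11, the motor that pushes the spindle poles apart, was at 62.3 and 76.2 CPM in R213G and 37.4 and 73.1 CPM in WT, and Tpx2, which activates Aurora A on the spindle, at 65.0 and 85.7 and at 43.7 and 78.0 CPM. In both, WTM1 was the lowest and the genotypes overlapped. Kif22, a kinesin that pushes chromosome arms, had the second largest ratio of WTM2 to WTM1, 2.43 (interval 2.18 to 2.72). Kif2c, a microtubule depolymerase, went with replicate number, at 18.9 and 35.3 CPM in R213G and 18.1 and 33.7 CPM in WT. Nusap1 and Hmmr, which bundle and organise spindle microtubules, were at 40.6, 62.2, 27.4 and 49.7 CPM and at 25.2, 41.5, 18.9 and 39.7 CPM. Kif18a, which dampens chromosome movement, was the exception, equal in both WT libraries at 6.75 and 6.73 CPM and at 5.10 and 8.59 CPM in RM1 and RM2.

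Condensin and topoisomerase II alpha compact and untangle chromosomes. Top2a, which encodes the topoisomerase, was at 163 and 248 CPM in RM1 and RM2 and at 121 and 215 CPM in WTM1 and WTM2 (0.29 ± 0.29). Within condensin the order of the ratios differed between the WT pair and the R213G pair. Smc4 was at 110 and 132 CPM in R213G and at 96.3 and 126 CPM in WT, and Smc2 at 49.4 and 84.0 and at 50.1 and 64.4 CPM. The ratio of WTM2 to WTM1 was 1.31 for Smc4 and 1.29 for Smc2, against 1.89 for Ncapd2, 2.02 for Ncapg and 2.29 for Ncaph, subunits of condensin I, and 1.38 for Ncapg2 of condensin II. The ratio of RM2 to RM1 was instead highest for the ATPase gene Smc2, at 1.70, and was 1.20 for Smc4, 1.11 for Ncapd2, 1.395 for Ncapg, 1.45 for Ncaph and 1.33 for Ncapg2. Ncapd2 had the smallest p of this group (0.28 ± 0.26, edgeR unadjusted p = 0.298), with 110 and 122 CPM in R213G and 65.7 and 125 CPM in WT, and only WTM1 stood apart.

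The 7 cytokinesis genes all had positive fold changes (median 0.28), all were lowest in WTM1, and all were higher in replicate 2 in both genotypes. Each of these held for 43 of the 50 members, against 49.1%, 24.4% and 24.3% of all tested genes. Ect2 (chromosome 3, 27097222 to 27153878, minus strand), the exchange factor that activates RhoA at the cleavage furrow, had the smallest p of the 50 (0.52 ± 0.25, edgeR unadjusted p = 0.0626, adjusted p = 1.0). It was at 26.2 and 30.5 CPM in RM1 and RM2 and at 15.8 and 23.6 CPM in WTM1 and WTM2, without overlap. Its partner in the centralspindlin complex, Racgap1, was at 69.9 and 76.5 CPM and at 56.6 and 85.1 CPM, and overlapped (0.05 ± 0.19). Kif20a, a kinesin of the central spindle, was at 63.7 and 72.7 CPM in R213G and at 39.0 and 74.7 CPM in WT. The bundling protein Prc1, the contractile ring scaffold Anln, and the kinesins Kif23 and Kif20b showed the same low WTM1, with ratios of WTM2 to WTM1 of 1.69, 2.33, 2.02 and 1.56. Anln had the largest step of the group in R213G as well, 1.56-fold from RM1 to RM2.

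Genes of anaphase and of protein destruction in mitosis had little shift between genotypes, with 2 of 4 positive and a median of 0.0042. Cdc20, the activator of the anaphase-promoting complex, was at 30.5 and 45.5 CPM in RM1 and RM2 and at 27.1 and 43.6 CPM in WTM1 and WTM2. Ube2c, an enzyme that supplies ubiquitin to that complex, was at 34.97 and 55.0 CPM in R213G and at 31.9 and 66.9 CPM in WT (-0.14 ± 0.34, edgeR unadjusted p = 0.699, the smallest of the 4). Espl1, the protease separase that cuts cohesin, was at 67.5 and 80.0 and at 55.6 and 89.6 CPM. These 3 genes followed the common order, with WTM1 lowest. Pttg1, the securin that restrains separase, did not: it was at 12.8, 12.5, 13.8 and 11.8 CPM, the highest in WTM1. Its counts of 438, 436, 456 and 405 gave a ratio of WTM2 to WTM1 of 0.855 (interval 0.746 to 0.980) and of RM2 to RM1 of 0.977 (interval 0.853 to 1.12).

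Other cell cycle genes were read from lists of known members. Of 73 further mitosis genes in the table, 0 passed the test (edgeR), and 52 had a positive fold change, against 49.1% of all tested genes. An unadjusted edgeR p under 0.05 was reached by 2 in the direction of R213G and 0 in the other, against 2.22% of all tested genes in either direction. They followed the same order: 45 of 73 were at least 1.5-fold higher in WTM2 than in WTM1, against 13.1% of all tested genes. Between RM2 and RM1 it was 31 of 73, against 17.7%, and WTM1 was lowest for 50, against 24.4%. The 2 genes of smallest p encode subunits of the inner kinetochore. Cenpp was at 3.16 and 4.71 CPM in R213G and at 0.757 and 1.81 CPM in WT (1.61 ± 0.66), and Cenph at 8.08 and 7.01 and at 2.78 and 4.63 CPM (1.02 ± 0.44). Neither overlapped between genotypes, but both were picked by smallest p, so this is no separate result. Both R213G libraries lay above both WT libraries for 13.7% of all tested genes. Cenpp had few reads in WT, with 25 counts in WTM1 and 62 in WTM2, while Cenph had 92 to 276 counts per library.

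Genes of S phase, when DNA is copied, also had 0 of 45 past the test. At an unadjusted edgeR p under 0.05 there were 3, all toward R213G, against 2.22% of all tested genes in either direction. Fold changes were positive for 38 (median 0.24), against 49.1%. Their step from WTM1 to WTM2 reached 1.5-fold for 20 of 45, against 13.1% of all tested genes. That from RM1 to RM2 did for 9 of 45, near the 17.7% of all tested genes. The summed level of the list was 1527 and 1669 CPM in RM1 and RM2, so RM1 was nearer to RM2 than for the 50 mitosis genes, summed to 2357 and 3242 CPM. Ccne1, the cyclin that starts S phase, was at 25.1 and 16.8 CPM in RM1 and RM2 and at 9.17 and 13.8 CPM in WTM1 and WTM2, highest in RM1 as Cdk1 was. Mcm2, a subunit of the replicative helicase, was at 62.9, 67.1, 38.9 and 55.1 CPM. Genes of G1 and of the resting state shared the pattern only in part. They had 0 of 28 past the test, 0 at an unadjusted edgeR p under 0.05 and 16 positive. WTM1 was lowest for 12 of 28, against 24.4% of all tested genes. At least 1.5-fold higher in replicate 2 were 5 of 28 in WT (13.1% of all tested genes) and 3 of 28 in R213G (17.7%). Ccnd3, a cyclin of G1, was at 123, 90.6, 85.3 and 88.5 CPM, and the inhibitor Cdkn2b had 2, 13, 28 and 39 counts.

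**Figure D4:**
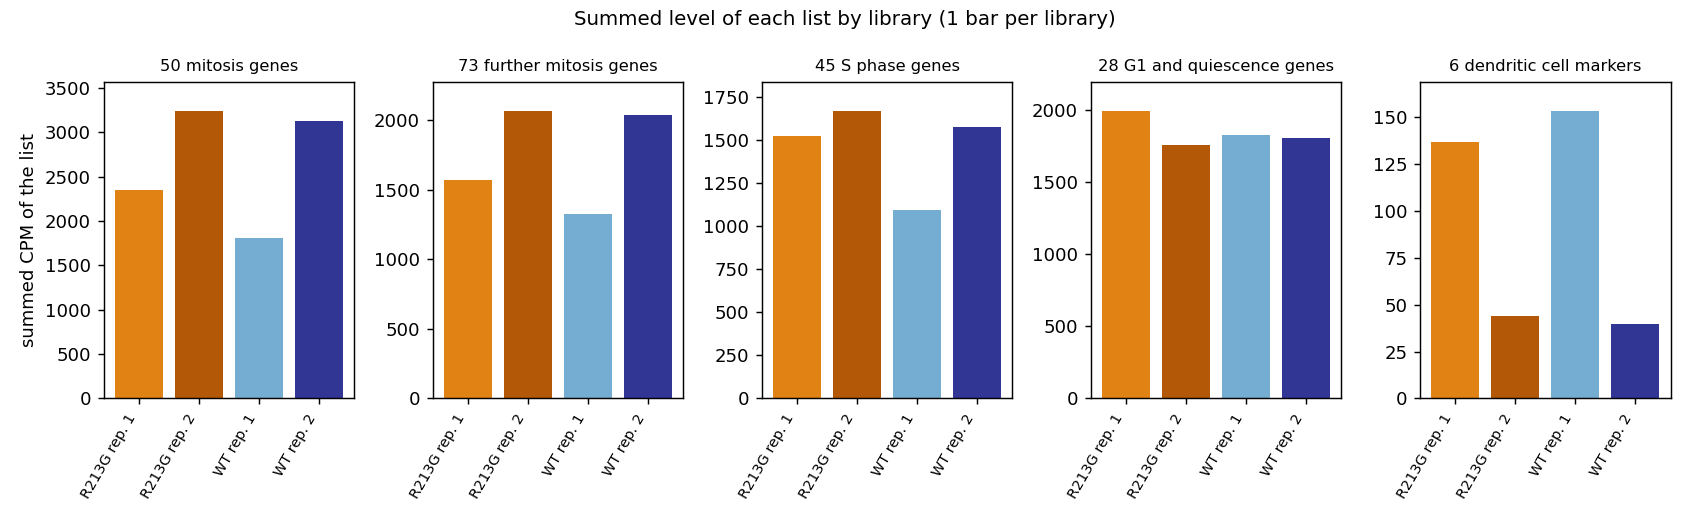
Summed CPM of 5 gene lists in each of the 4 libraries, 1 bar per library with no error, and with a separate axis from 0 for each list. The mitosis list is lowest in WTM1 (1804 CPM) and next lowest in RM1 (2357 CPM), and the dendritic cell markers are highest in those 2 libraries.

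Some markers of other cell types were higher in RM1 and WTM1, the 2 libraries with less mitotic RNA, than in RM2 and WTM2. Of 6 dendritic cell markers, 4 were higher in replicate 1 than in replicate 2 in both genotypes, and the summed level was 136 CPM in RM1 and 153 CPM in WTM1 against 44.1 CPM in RM2 and 39.5 CPM in WTM2. The highest of them, the chemokine receptor Ccr7, was at 44.2 and 22.7 CPM in R213G and at 79.99 and 16.3 CPM in WT. Of the type 1 dendritic cell markers, Xcr1 was at 0 in both replicate 1 libraries, and Clec9a had 0, 20, 36 and 8 counts. The growth factor receptor Kit, the 1 mast cell marker in the table, was at 39.7 and 12.3 CPM in R213G and at 34.95 and 12.4 CPM in WT. B cell markers summed to 23.9 and 8.10 CPM in R213G and to 18.5 and 6.59 CPM in WT, nearly all of it from Ighm. Of the T cell markers, Cd3e had 75, 0, 37 and 0 counts and Trac 28, 6, 11 and 0 counts in RM1, RM2, WTM1 and WTM2. Others did not go that way: Cd3g had 0, 5, 12 and 0 counts, Cd3d 0, 0, 7 and 0, and Cd8a 0, 34, 0 and 0. So RM1 and WTM1 had higher dendritic cell and B cell sums, and more Kit, Cd3e and Trac, than RM2 and WTM2. The part of these transcripts in the result was not tested. Of the 2 libraries, RM1 had more Kit, Cd3e and Trac and the higher B cell sum, and WTM1 had the higher dendritic cell sum. Xcr1 went the other way, with 0 counts in both replicate 1 libraries and 17 and 15 counts in RM2 and WTM2. Clec9a, Cd3g, Cd3d and Cd8a did not show the split between replicates. The summed T and NK cell list, 8.23 to 17.1 CPM, did not show that split either, and Cd4, at 5.21, 15.8, 13.8 and 10.9 CPM, made up most of it. The 7 epithelial markers were split. Their sum was 221 and 105 CPM in R213G and 166 and 100.1 CPM in WT, carried by Cdh1 and Epcam, which were higher in replicate 1 of both genotypes. Sftpb, Scgb1a1 and Sftpc, the markers of secretory and alveolar epithelium, were higher in replicate 2 of both, with at most 87 counts in a library. Endothelial markers summed to 99.6 to 143 CPM, with Vwf the highest, and the sum was not split by replicate. Neutrophil markers summed to 137 to 187 CPM, with Mmp8 the highest of them. Monocyte markers summed to 11371, 10166, 11747 and 14081 CPM in RM1, RM2, WTM1 and WTM2, with Fn1 the highest. Interstitial macrophage markers summed to 17638, 19163, 23397 and 17628 CPM, with Apoe the highest. The fibroblast marker Col1a1 had at most 1 count, and Hbb-bs of red cells had 14 counts in WTM1 and 0 in the other 3 libraries. Resident alveolar macrophages also divide locally. Their markers summed to 284 CPM in WTM1, 355 in RM2, 359 in RM1 and 630 in WTM2. Chil3 was the highest, at 198, 177, 134 and 504 CPM in RM1, RM2, WTM1 and WTM2, and largely set that order. Car4 (9.11, 19.2, 5.63 and 12.8 CPM) and Marco (7.94, 23.6, 7.38 and 9.33 CPM) were lowest in WTM1 and highest in RM2. Siglecf, Fabp4, Krt79, Cidec and Plet1 were not lowest in WTM1. The part of resident cells in the result was not tested.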

How the data were processed

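RNA was isolated from sorted cells and made into directional poly(A) libraries, per the labels' protocols. The deposited values were raw counts for each gene symbol, not normalized by the authors. The submitters' processing notes name STAR 2.5.1b, featureCounts, Subread 1.4.4 and GRCm38; which annotation, strand setting and rule for multi-mapped reads applied is not given in the sources used here, so reads of near-identical copies could be split or lost. Genotypes were compared by the quasi-likelihood test of edgeR 4.0.16 in its newer form (R 4.3.3), R213G against WT over all 4 libraries, with TMM scaling, filterByExpr (13575 of 16360 genes), robust estimation and Benjamini-Hochberg adjustment over all tested genes, threshold 0.05. SE is the log2 fold change divided by the square root of F. The fit had 2 residual degrees of freedom. Mean log2 CPM used a prior count of 2. Ratios of 2 libraries carry exact binomial 95% intervals (scipy 1.17.1), which cover counting error only. Exon lengths came from GENCODE vM21 (GRCm38). No 2 libraries agreed within sampling noise (their chi-square per degree of freedom was 17.5 or more). Scripts were tested on simulated data.

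The members and lists were chosen with earlier results of these data known. Values by library are given for the 2 members of highest mean CPM and the one of smallest p in each role, for Mki67 and Foxm1, and for the largest and smallest fold change; members outside that rule were named after their values were seen. Alternatives were DESeq2 size factors, total-count scaling, no filter, DESeq2 1.42.0, the legacy form of the fit, a replicate block, a 2-fold threshold, summed CPM and leaving out each library.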

Additional observations from a re-analysis of the deposited data

How the results depend on the processing

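No mitosis gene passed the test under any alternative run, and leaving out 1 library gave 0 to 0. Of all genes, DESeq2 called 1 and leaving out 1 library gave 0 to 2. With DESeq2 size factors, no filter, DESeq2 or the legacy form, the count of mitosis genes with a positive log2 fold change was 43 of 50, and the median log2 fold change stayed at 0.16. Leaving out 1 library moved the count of positive genes from 11 to 48 and the median from -0.15 to 0.72. Fewer samples enter those fits, and the lone library of a genotype is assumed to vary like the other genotype; the cause of these moves was not tested. The sign changed for 20 of 27 genes, in 18 without WTM1 and 13 without RM2. The ranges of their log2 fold changes were Ccna2 (-0.055 to 1.02), Plk1 (-0.25 to 0.66), Bub1b (-0.19 to 0.53), Mad2l1 (-0.14 to 0.28), Cenpe (-0.56 to 0.76), Cenpf (-0.49 to 0.57), Incenp (-0.15 to 0.36), Aurkb (-0.38 to 0.46), Cdca8 (-0.25 to 0.74), Tpx2 (-0.048 to 0.79), Kif11 (-0.077 to 0.89), Top2a (-0.064 to 0.77), Smc4 (-0.056 to 0.33), Ncapd2 (-0.10 to 0.82), Racgap1 (-0.22 to 0.37), Kif20a (-0.13 to 0.81), Espl1 (-0.28 to 0.41), Ube2c (-0.57 to 0.50), Mki67 (-0.36 to 0.53) and Foxm1 (-0.17 to 0.47). Cdk1, Bub1, Ndc80, Kif4, Ect2, Ccnb1 and Cks2 kept their sign.

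With the replicate block from the titles, 0 genes were called. In that fit 44 of 50 were positive, against 48.7% of all tested genes, with a median of 0.18. An unadjusted edgeR p under 0.05 was reached by 4 of 50, against 298 of 13575 tested genes, and Aurkb changed sign to 0.00298. The numbers are not known to pair the libraries: deviations of RM1 and WTM1 from their group means had a correlation of 0.0926 over 13575 genes. At a 2-fold threshold, 14 of 50 were higher in WTM2 than in WTM1 (7.69% of all tested genes) and 2 in RM2 than in RM1 (11.6%). Scaling by DESeq2 size factors or total counts, no filter and summed CPM gave gaps of 0.79 to 0.85 between the WT libraries and 0.38 to 0.46 between the R213G libraries. No mitosis gene had under 10 counts in a library, so leaving out such genes gave no value.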
